A study of Mus musculus with 2 samples.

Results

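NON-EC is the name the authors gave to the enteroendocrine cells of their mouse ileal crypt data that are not enterochromaffin cells, that is, to the cells that make peptide hormones. The cells were taken as all cells with that name in the deposited cell table, and they numbered 215 of the 11562 cells listed in 12 classes. Replicate 1 held 103 of 5305 listed cells and replicate 2 held 112 of 6257. The 2 libraries, each called a replicate in the labels, form 1 group, so every comparison runs between NON-EC and another class of the same libraries.

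Both libraries are labelled WT and came from the ileum of Atoh1CreER-T2;R26RTom mice, in which tamoxifen turns on a red reporter (Tom) through a Cre enzyme made in cells that use Atoh1, a gene of the secretory lineage. The mice had 2 injections of tamoxifen at 1 mg/mL with 24 h between them, and crypt cells were harvested 12 h after the second. Live Tom+ cells were sorted by flow cytometry and made into 10x Genomics 3′ libraries, which count 1 unique molecular identifier (UMI) per captured transcript whatever its length. No library without tamoxifen or without Cre was analysed here, and neither age nor sex nor the number of mice behind a library is given in the labels.

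Enteroendocrine cells are scattered hormone cells of the gut lining that sense nutrients and release peptides or amines. They arise from secretory progenitors that switch on Neurog3, a transcription factor made for a short time in the precursor, and they then take up further factors that set the hormone. Ghrelin (Ghrl) stimulates appetite, GIP (Gip) and the glucagon-like peptides made from proglucagon (Gcg) raise insulin release after a meal, peptide YY (Pyy) slows gut movement and feeding, cholecystokinin (Cck) empties the gall bladder, secretin (Sct) drives bicarbonate secretion, somatostatin (Sst) restrains other hormone cells, and neurotensin (Nts) acts on gut movement. Enterochromaffin cells, here the class EC, make serotonin instead, and EEC-PRE is the class named for enteroendocrine precursors.

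The promoters of the 5 hormones that the cell-by-cell results turn on are shown because several bHLH factors of this lineage, among them NEUROG3 and NEUROD1, bind the E-box letters CANNTG. The sequences are from RefSeq, build GRCm38.p6, and run 5′ to 3′ on the gene's strand over 300 bases, from 250 before a start site to 50 after it. That start site lay 854 bases from the annotated principal start for Cck, 63 for Ghrl, 3 for Gcg and 0 for Gip and Pyy. Ghrl had 4 such windows and Pyy 2, and the nearest was taken. Ghrl lies at chr6:113719862-113720161 on the minus strand, Gip at chr11:96024295-96024594 on the plus strand, Gcg at chr2:62483604-62483903, Pyy at chr11:102107783-102108082 and Cck at chr9:121495645-121495944, these last 3 on the minus strand. Capitals mark CANNTG, which reads the same on both strands, and TATAAA on either strand. No E-box overlapped a TATAAA in these windows.
Ghrl: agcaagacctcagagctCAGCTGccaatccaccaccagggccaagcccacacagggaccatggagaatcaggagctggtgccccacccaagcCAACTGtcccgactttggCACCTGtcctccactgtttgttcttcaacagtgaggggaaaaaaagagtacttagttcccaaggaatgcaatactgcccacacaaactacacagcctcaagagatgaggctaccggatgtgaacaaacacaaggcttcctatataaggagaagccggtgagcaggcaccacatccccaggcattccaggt
Gip: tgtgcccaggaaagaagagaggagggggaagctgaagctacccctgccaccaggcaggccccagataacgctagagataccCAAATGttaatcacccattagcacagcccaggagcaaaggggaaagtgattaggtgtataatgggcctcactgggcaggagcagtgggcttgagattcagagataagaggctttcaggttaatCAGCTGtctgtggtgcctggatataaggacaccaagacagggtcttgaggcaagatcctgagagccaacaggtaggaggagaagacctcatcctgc
Gcg: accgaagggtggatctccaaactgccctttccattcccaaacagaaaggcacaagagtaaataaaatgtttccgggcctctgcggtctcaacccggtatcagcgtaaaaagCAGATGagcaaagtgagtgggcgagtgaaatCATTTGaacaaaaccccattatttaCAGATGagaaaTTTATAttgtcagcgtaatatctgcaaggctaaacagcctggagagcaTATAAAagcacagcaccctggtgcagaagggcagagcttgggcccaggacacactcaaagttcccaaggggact
Pyy: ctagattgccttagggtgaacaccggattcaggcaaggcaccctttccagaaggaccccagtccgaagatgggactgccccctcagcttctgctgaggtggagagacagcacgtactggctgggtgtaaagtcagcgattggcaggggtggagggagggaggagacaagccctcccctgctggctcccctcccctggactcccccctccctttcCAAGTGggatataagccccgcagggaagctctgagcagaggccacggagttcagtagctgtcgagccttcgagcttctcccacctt
Cck: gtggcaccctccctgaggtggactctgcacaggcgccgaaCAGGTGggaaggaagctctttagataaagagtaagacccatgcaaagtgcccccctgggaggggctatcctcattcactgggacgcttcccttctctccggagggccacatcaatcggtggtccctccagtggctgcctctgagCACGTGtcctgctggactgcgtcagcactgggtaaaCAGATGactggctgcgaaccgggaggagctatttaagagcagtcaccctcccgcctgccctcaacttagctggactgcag
The window held 3 E-boxes in Ghrl, 2 in Gip, 3 in Gcg, 1 in Pyy and 3 in Cck, and Gcg held 2 TATAAA. Among all 32851 RefSeq mouse promoter windows of this length, 72.3% held at least 1 CANNTG and 13.6% at least 1 TATAAA, so an E-box alone sets none of these promoters apart. The homeobox core TAATTA, present in 5.29% of all windows, was in none of the 5. These are matches of letters, and no binding was measured.

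Of the listed cells, 1.94% were NON-EC in the first library, with an exact (Clopper-Pearson) 95% interval of 1.59 to 2.35%, and 1.79% in the second, with 1.48 to 2.15%. The mean share was 1.87% ± 0.107 (SD, n = 2 libraries). Of the cells in the 3 enteroendocrine classes, 51.0% in replicate 1 and 41.8% in replicate 2 were NON-EC, beside 42 and 83 EC cells and 57 and 73 EEC-PRE cells. Summed NON-EC counts came to 371769 and 328635 UMIs, out of 32656481 and 27014983 UMIs in all listed cells. A NON-EC cell had a median of 3534 UMIs and 1847 genes in replicate 1 and of 2449.5 UMIs and 1414.5 genes in replicate 2. No NON-EC barcode was listed in the other library. Since the classes were drawn by the authors from these same expression values, all tests between classes describe how the classes differ and are no independent evidence that they do.

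NON-EC carried the markers of its label, which is description only, since the classes were drawn from these same expression values. Chga and Chgb, the granins packed into hormone granules, were found in 87.4% and 84.5% of NON-EC cells in replicate 1 and in 75.0% and 81.2% in replicate 2, and 90 and 94 cells held at least 2 UMIs of 1 of 8 peptide hormones. Tph1, the enzyme that defines serotonin cells, gave a UMI in 2.91% and 0.89% of NON-EC cells, against 85.7% and 57.8% of EC cells. Of 10 tuft genes 8 were at 0 in the NON-EC sum of replicate 1 and 3 in that of replicate 2, Trpm5 and Gfi1b in both, and of 5 leukocyte genes 4 and 3 were at 0, Cd3g and Gzma in both. The tuft genes summed to 0.134 and 0.639 per 10000 UMIs in NON-EC, against 1.33 and 1.07 in the free RNA of droplets with at most 50 UMIs, and the leukocyte genes to 0.0269 and 0.0609 in NON-EC, against 0.281 and 0.360 in free RNA. Of the enterocyte genes Alpi was at 0, while 3 others were above free RNA in CPM without scaling: Sis at 605 and 313 in NON-EC against 34.8 and 44.6, Rbp2 at 350 and 204 against 103 and 92.6, and Anpep at 169 and 122 against 24.8 and 26.6. The 9 enterocyte genes together were at 13.1 and 8.34 per 10000 NON-EC UMIs, against 13.1 and 10.6 in free RNA, and their part in the results was not tested. Goblet and Paneth transcripts were present too. The 10 goblet genes summed to 190 and 174 per 10000 NON-EC UMIs and the 6 Paneth genes to 71.1 and 113, against 640 and 486 and against 651 and 1250 in free RNA. All free RNA levels here are those of free RNA alone and not the amount a cell would carry. Free RNA was estimated to make up at most 5.91% and 5.42% of NON-EC UMIs. These ceilings are the lowest ratios of NON-EC to free RNA among genes with at least 1000 free RNA counts. In 11 of 103 and 29 of 112 NON-EC cells goblet and Paneth genes took over 2% of the UMIs, and their part in the results was not tested beyond leaving those cells out.

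Hormone transcripts set NON-EC apart from every other class. Of 27 gut hormone genes looked up, 11 had enough counts to be tested, and 8 of them, Ghrl, Gip, Gcg, Pyy, Cck, Sct, Nts and Sst, were higher in NON-EC than in each of the other 11 classes. Across all 10994 genes tested, 42 met that rule, or 0.382%. Hormones that passed the filter on counts only through NON-EC, such as Gip, Gcg and Nts, could be called only as higher. Levels are given as counts per 1000000 UMIs (CPM) with TMM scaling, replicate 1 before replicate 2.

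Ghrl was at 2905 and 2572 CPM in NON-EC, against 0 and 0 CPM in EC and 0 and 22.8 CPM in EEC-PRE. Gcg was at 3969 and 1608 CPM in NON-EC and at 0 in both sums of EC and of EEC-PRE. Gip was at 634 and 2946 CPM in NON-EC and likewise at 0 in all 4 of those sums. In no other class did any of the 3 pass 25.8 CPM, and Gip differed the most between the libraries. Counted against a limit of 3 UMIs over both libraries, NON-EC was at least 399-fold higher than EC for Ghrl (edgeR adjusted p = 1.75e-05), at least 415-fold for Gcg (adjusted p = 0.00015) and at least 250-fold for Gip (adjusted p = 1.56e-38). Pyy was at 2304 and 1027 CPM in NON-EC, against 0 and 3.69 CPM in EC, a ratio of 741 with a counting interval of 133 to 29305 from the 1 UMI in EC (adjusted p = 6.82e-06).

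Cck and Sct were shared with EC at a lower level. Cck was at 3791 and 1797 CPM in NON-EC and at 91.2 and 22.2 CPM in EC, a log2 difference of 5.72 (SE 0.22, adjusted p = 1.09e-30). Sct was at 3412 and 1926 CPM in NON-EC, against 772 and 875 CPM in EC and 67.5 and 95.9 CPM in EEC-PRE, with log2 differences of 1.66 (SE 0.25, adjusted p = 0.00302) and 5.06 (SE 0.36, adjusted p = 1.01e-06). Sct was also found outside the hormone classes, at 336 and 266 CPM in GOBLET and 305 and 244 CPM in PANETH-PRE.

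Sst and Nts were carried by few cells. Sst was at 844 and 538 CPM in NON-EC, against 0 and 148 CPM in EC, a log2 difference of 2.91 (SE 0.56, adjusted p = 0.0348), a call that was lost under several other settings, among them a fit of the 3 enteroendocrine classes alone (adjusted p = 0.763). All 406 Sst UMIs of replicate 1 lay in 1 cell, where they were 14.9% of its UMIs. Nts was at 93.6 and 70.2 CPM in NON-EC and at 0 in EC, at least 12.0-fold higher (adjusted p = 1.82e-05), and 40 of its 45 UMIs in replicate 1 lay in 1 cell.

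Of the other 3 tested hormones, Tac1, the precursor of substance P and a peptide of serotonin cells, was lower in NON-EC than in EC, at 79.0 and 105 CPM against 3673 and 1857 CPM (log2 difference -4.89, SE 0.20, adjusted p = 4.06e-18). Iapp (amylin) was at 47.8 and 23.4 CPM in NON-EC and 18.2 and 18.5 CPM in EC, and Nucb2 (nesfatin) at 70.7 and 88.9 CPM in NON-EC and 73.0 and 62.8 CPM in EC, and neither passed the test against EC (adjusted p = 0.773 and 0.935). Nucb2 was lower in NON-EC than in PANETH, where it was at 509 and 640 CPM (log2 difference -2.86, SE 0.29, adjusted p = 1.31e-06), and than in PANETH-PRE, where it was at 233 and 278 CPM (log2 difference -1.70, SE 0.31, adjusted p = 0.000575). Tac1 was at 85.1 and 42.0 CPM in GOBLET-PRE, where the difference did not pass the test (adjusted p = 0.0831). The 16 hormone genes with too few counts to test were Insl5, Gast, Ppy, Npy, Penk, Cartpt, Ucn, Ucn3, Adm, Nmb, Grp, Vip, Gal, Calca, Calcb and Uts2b. With values limited to the count-based bounds, the median log2 difference of the 11 tested hormones was 3.58 against EC and 6.91 against EEC-PRE, where all genes had medians of -0.00 and 0.18. These medians hold the hormones that passed the filter only through NON-EC, so their sign was in part set by that filter.

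**Figure D1:**
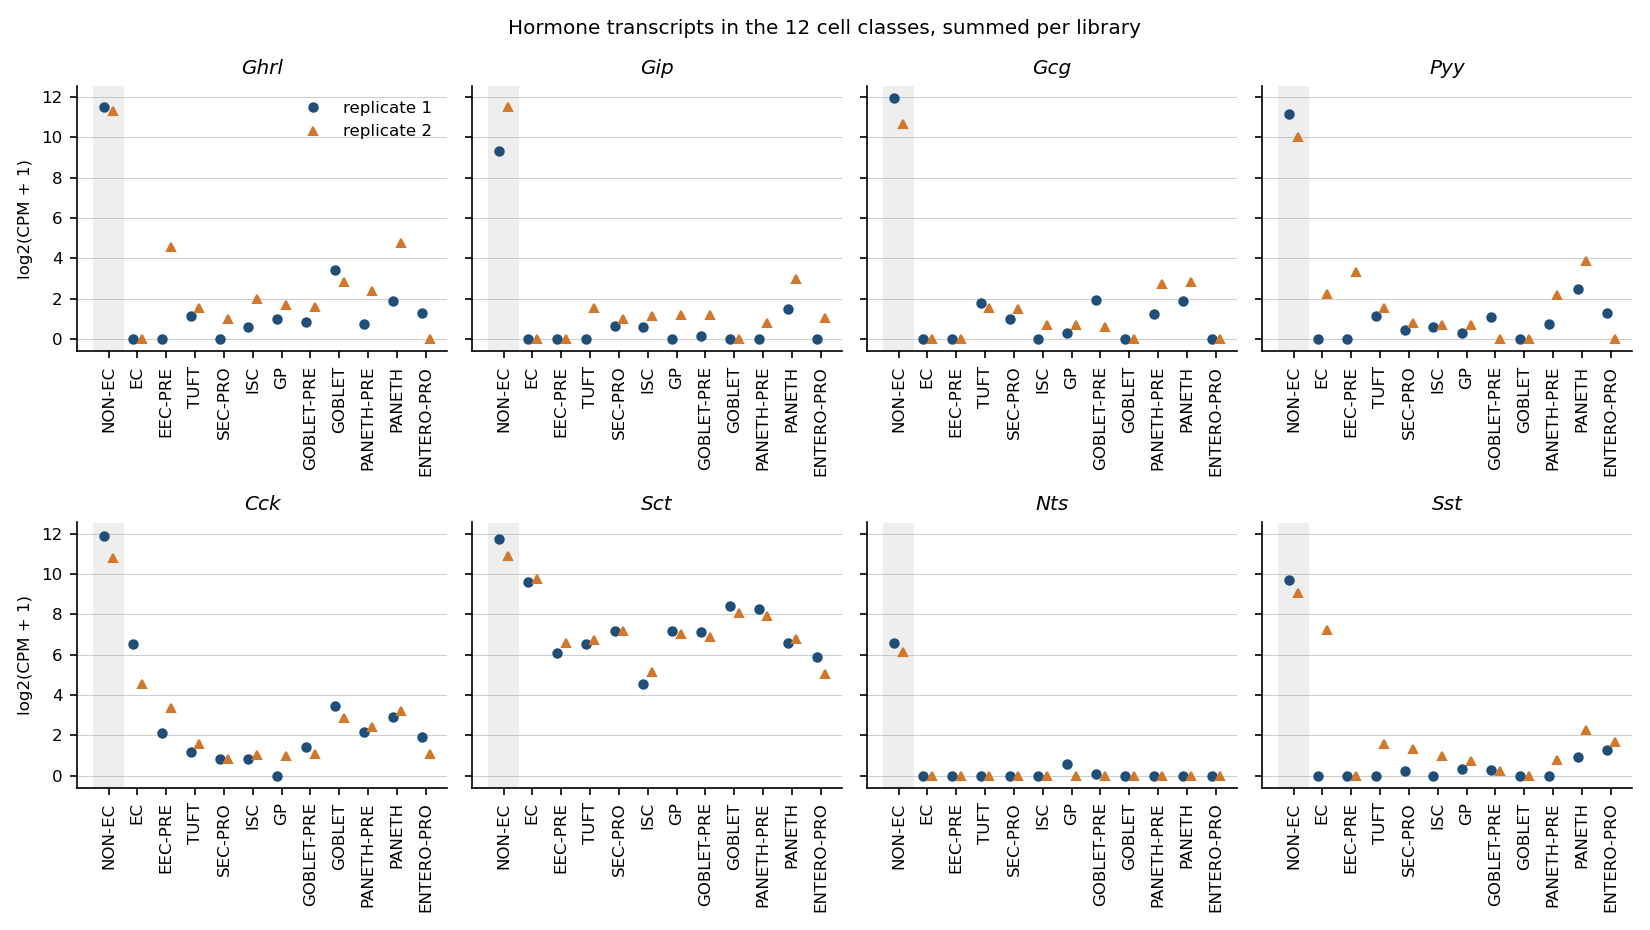
Level of 8 hormone transcripts in the 12 classes, as log2(CPM + 1) of the summed UMIs of each library, with replicate 1 as circles and replicate 2 as triangles and NON-EC shaded at the left. Ghrl, Gip, Gcg, Pyy and Nts stand high in NON-EC and pass 25.8 CPM in no other class, Cck and Sst reach 91.2 and 148 CPM in EC, and Sct is seen in all classes at a lower level.

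Single cells showed that NON-EC is a mixture of cells with different hormone sets. A Ghrl UMI was found in 39.8% and 37.5% of NON-EC cells, against 0.47% and 0.68% of GOBLET-PRE cells, a class that should lack it and whose cells were deeper (median 6104 and 3369 UMIs). The share was 37.9% and 24.1% for Gcg, 52.4% and 38.4% for Pyy, 53.4% and 49.1% for Cck and 10.7% and 10.7% for Gip, and in GOBLET-PRE none of these passed 0.48%. Sct was different, with a UMI in 85.4% and 75.9% of NON-EC cells but also in 46.9% and 30.3% of GOBLET-PRE cells. The rarer transcripts were Sst in 0.97% and 8.93% and Nts in 2.91% and 1.79% of NON-EC cells.

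A few Gip cells held very large amounts. Gip had nearly the same share of cells in both libraries but a level of 820 CPM before scaling in replicate 1 and 3831 CPM in replicate 2. In replicate 2, 1 cell held 485 of the 1259 Gip UMIs, which were 26.2% of its own UMIs, and without that cell the level was 2369 CPM, against 611 CPM in replicate 1 without its top cell. The median NON-EC cell gave 1.36% and 0.682% of its UMIs to the 8 hormones, and the highest cell 15.1% and 29.9%.

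Each cell was assigned to the hormone with the most UMIs where that hormone had at least 2, with ties given to the first of the order used here. Sct led in 27 and 24 cells, Ghrl in 23 and 27, Gcg in 15 and 12, Cck in 12 and 13, Pyy in 8 and 4, Gip in 3 and 9, Sst in 1 and 5 and Nts in 1 and 0, and no hormone reached 2 UMIs in 13 and 18 cells. These are ranges of one measure and not types. In 1 and 6 cells the lead was a tie, and with a minimum of 5 UMIs 162 cells were led in place of 184.

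Many cells held several hormone transcripts. At least 2 UMIs of 2 or more hormones were found in 72 of 103 and 65 of 112 NON-EC cells, of 3 or more in 48 and 44, and of 5, the highest number seen, in 12 and 8. With a minimum of 5 UMIs, chosen after the data were seen, 59 of 103 and 41 of 112 cells held 2 or more hormones.

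Hormones held by the same cell were counted at 2 or more UMIs of each. Among all 103 and 112 NON-EC cells, Cck was in 47 and 48 at this minimum, Pyy in 46 and 31 and Gcg in 36 and 27. Of the Gcg cells, 32 of 36 in replicate 1 and 25 of 27 in replicate 2 also held Cck, and 32 of 36 and 19 of 27 also held Pyy. The reverse was less complete, with Gcg in 32 of 47 and 25 of 48 Cck cells and in 32 of 46 and 19 of 31 Pyy cells. Ghrl and Gip were not found together at this minimum, with 35 Ghrl and 10 Gip cells among 103 in replicate 1 and the same numbers among 112 in replicate 2. The Gip cells are few, and 1 cell of replicate 1 held 80 UMIs of Gip with 1 of Ghrl. Ghrl cells did hold the other peptides at times, with Gcg in 14 of 35 and 10 of 35, Pyy in 15 and 10, and Cck in 12 and 11. Gip cells mostly held Cck, in 8 of 10 and 7 of 10, while Gcg was in 2 and 1 of them. All Gcg and all Gip cells held Sct at this minimum, as did 81 of 103 and 75 of 112 NON-EC cells in all. With a minimum of 5 UMIs, Sct was in 28 of 29 and 16 of 17 Gcg cells and in 8 of 8 and 8 of 9 Gip cells, Cck was in 27 of 29 and 15 of 17 Gcg cells, and no cell held both Ghrl and Gip. No test was made of these counts.

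**Figure D2:**
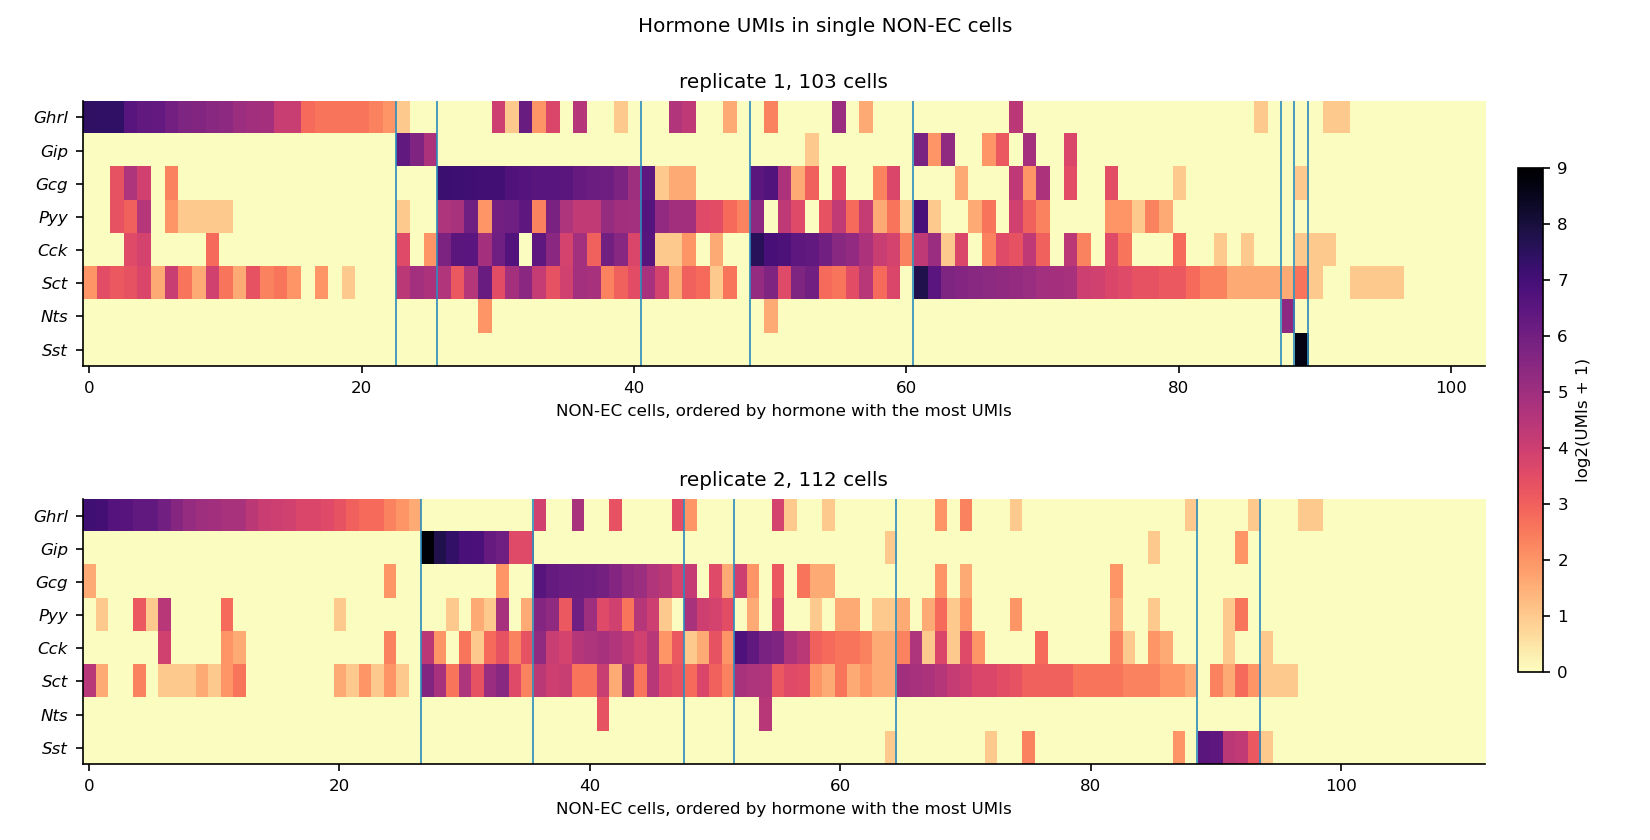
UMIs of 8 hormone transcripts, as log2(UMIs + 1), in each of the 103 NON-EC cells of replicate 1 (top) and the 112 of replicate 2 (bottom), ordered by the leading hormone, with lines between those groups and the cells without one at the right. Most Gcg cells also hold Pyy and Cck, which extend beyond them. The 10 Gip cells and the 35 Ghrl cells of each library (2 or more UMIs) do not overlap, and Sct runs through most columns.

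Other transcripts varied along with the leading hormone, here as CPM without scaling and with no test, since the cells of a group come from 1 library. Cells led by Gip were rich in Fabp5, a fatty acid binding protein, at 8748 and 8065 CPM, against 113 and 39.8 CPM in cells led by Ghrl. They were also rich in Chgb, at 23268 and 10881 CPM against 514 and 451 CPM in Ghrl-led cells. Chga ran the other way, at 271 and 299 CPM in Gip-led and 1843 and 1923 CPM in Ghrl-led cells, so the granins divided these hormone sets. Gip-led cells are only 3 and 9 in number, and the Chga value of replicate 1 rests on 3 UMIs.

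Ghrl-led cells had the highest Cdkn1a, the cell cycle inhibitor p21, of the groups compared, at 3336 and 2665 CPM, against 740 and 355 CPM in Gcg-led cells. They also had Peg3, an imprinted zinc finger gene, at 1354 and 995 CPM. Gcg-led cells held Pyy at 10569 and 6090 CPM, Scg2, a granin, at 973 and 616 CPM and Etv1, an ETS factor, at 876 and 687 CPM, where Ghrl-led cells held Scg2 at 12.5 and 13.3 CPM (1 UMI in each library) and Etv1 at 201 and 172 CPM. Neurog3 was found in Ghrl-led cells at 163 and 146 CPM and in cells without a leading hormone at 110 and 322 CPM, and it gave no UMI in the 15 and 12 cells led by Gcg or the 12 and 13 led by Cck. In the 5 Sst-led cells of replicate 2, Hhex, a factor known for somatostatin cells of the pancreas, was at 253 CPM from 4 UMIs.

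**Figure D3:**
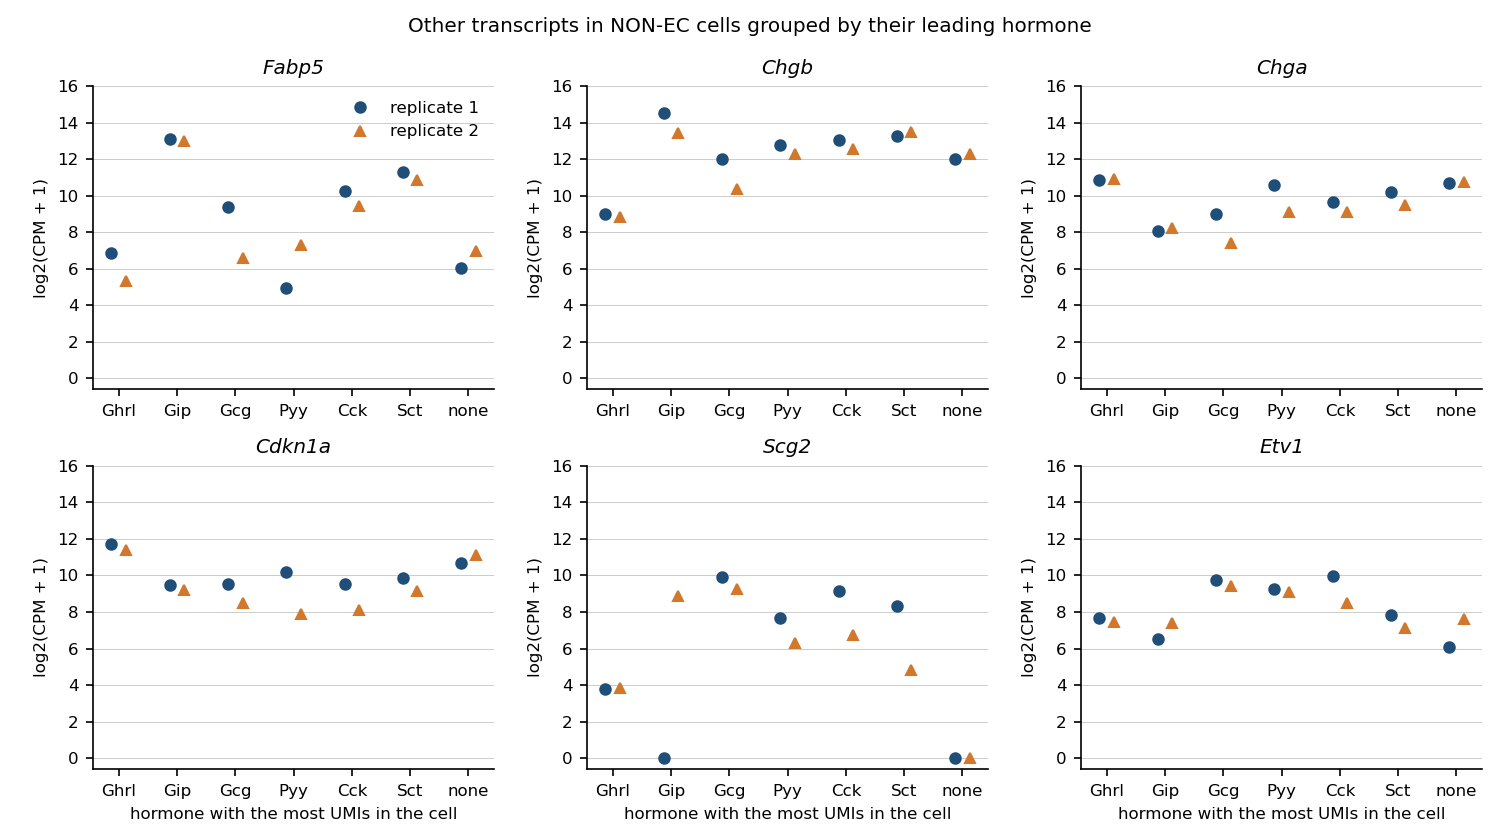
Level of 6 other transcripts, as log2(CPM + 1) without scaling, in NON-EC cells grouped by the hormone with the most UMIs, with circles for replicate 1 and triangles for replicate 2. Fabp5 and Chgb peak in Gip-led cells, Chga is lowest in Gip-led and Gcg-led cells, Cdkn1a is highest in Ghrl-led cells, and Scg2 and Etv1 are high in Gcg-led and Cck-led cells.

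NON-EC against EC compares peptide hormone cells with serotonin cells, the nearest class by whole profile (r of log2 CPM of 0.815 and 0.871 across 4101 genes, which are not independent, where the NON-EC sums of the 2 libraries had 0.910). Beside the hormones, NON-EC had more of the factors Isl1, Pax6, Etv1 and Peg3 and of the calcium-binding protein Scgn, and less of the serotonin genes Tph1 and Slc18a1, of the factors Lmx1a and Neurog3 and of both main granins. In all, 80 genes were higher (0.728% of those tested) and 87 lower (0.791%) in NON-EC at an edgeR adjusted p under 0.05. Together these are 1.52% of genes, and 1021 had an unadjusted p under 0.05.

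Among 16 tested genes of granules and prohormone processing, 4 were higher and 3 lower in NON-EC. One of them, Scg2, passed the filter on counts only through NON-EC and could be called only as higher. Chgb was the most abundant, at 4826 and 4540 CPM in NON-EC and 40823 and 27897 CPM in EC (log2 difference -2.89, SE 0.42, adjusted p = 0.00254). Chga was at 952 and 772 CPM in NON-EC, against 6166 and 3149 CPM in EC (log2 difference -2.39, SE 0.39, adjusted p = 0.00975). Pcsk1, the convertase that cuts most of these prohormones, was at 247 and 227 CPM in NON-EC and 693 and 314 CPM in EC (adjusted p = 0.000168). The 3 lower genes are thus granins and a convertase that EC also uses. The 4 higher ones were Scgn, at 653 and 728 CPM in NON-EC and 6.08 and 44.3 CPM in EC (log2 difference 4.58, SE 0.35, adjusted p = 7.25e-10), Scg2, at 245 and 108 CPM in NON-EC and 0 in EC (at least 26.2-fold higher, adjusted p = 5.95e-10), and the peptide trimming enzymes Cpe and Pam. Cpe was at 670 and 576 CPM in NON-EC, against 365 and 303 CPM in EC (log2 difference 0.93, SE 0.21, adjusted p = 0.016), and Pam at 345 and 227 CPM in NON-EC, against 134 and 144 CPM in EC (log2 difference 1.00, SE 0.23, adjusted p = 0.00428). The Chga call was lost when either NON-EC sum was left out (adjusted p = 0.131 without replicate 1 and 0.0971 without replicate 2), and the Cpe and Pam calls without replicate 1 (adjusted p = 0.291 and 0.445). Without library as a term none of the 3 was called (adjusted p = 0.136 for Chga, 0.294 for Cpe and 0.0635 for Pam). DESeq2's Wald test called 2 of the 16, and not Chga, Scgn, Scg2, Cpe and Pam (adjusted p = 0.412, 0.637, 0.869, 0.876 and 0.135).

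Among 29 tested transcription factors of the lineage, 5 were higher and 4 lower in NON-EC. Isl1, a LIM homeobox factor, was at 1077 and 899 CPM in NON-EC and 85.1 and 96.0 CPM in EC (log2 difference 3.46, SE 0.48, adjusted p = 0.00643). Pax6, a paired box factor, was at 339 and 264 CPM in NON-EC and 54.7 and 73.8 CPM in EC (log2 difference 2.17, SE 0.31, adjusted p = 4.49e-06). All NON-EC values of both factors lay above all EC values. Etv1 was at 320 and 211 CPM in NON-EC, against 134 and 51.7 CPM in EC (log2 difference 1.60, SE 0.31, adjusted p = 0.000264), and Peg3 at 584 and 435 CPM in NON-EC, against 176 and 144 CPM in EC (log2 difference 1.68, SE 0.23, adjusted p = 8.96e-07).

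Lmx1a, a LIM homeobox factor known for enterochromaffin cells, gave no UMI in NON-EC and stood at 243 and 114 CPM in EC, at least 49.4-fold lower in NON-EC (adjusted p = 2.31e-12). Neurog3 was at 56.1 and 63.2 CPM in NON-EC and 219 and 236 CPM in EC (log2 difference -1.91, SE 0.33, adjusted p = 0.000357). Foxa1, a forkhead factor, and Runx1t1, a co-repressor, were the other 2 lower members, with log2 differences of -1.75 (SE 0.29, adjusted p = 9.6e-06) and -1.55 (SE 0.31, adjusted p = 0.0113). Neurod1, the factor downstream of Neurog3, was at 1027 and 726 CPM in NON-EC and 1003 and 1174 CPM in EC and did not pass the test (adjusted p = 0.82), nor did Mlxipl, at 433 and 271 CPM in NON-EC and 249 and 229 CPM in EC (adjusted p = 0.514). DESeq2's Wald test called 3 of the 29 factors against EC, and not Isl1, Pax6, Lmx1a, Neurog3 and Runx1t1 (adjusted p = 0.284, 0.942, 0.836, 0.286 and 0.0675).

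**Figure D4:**
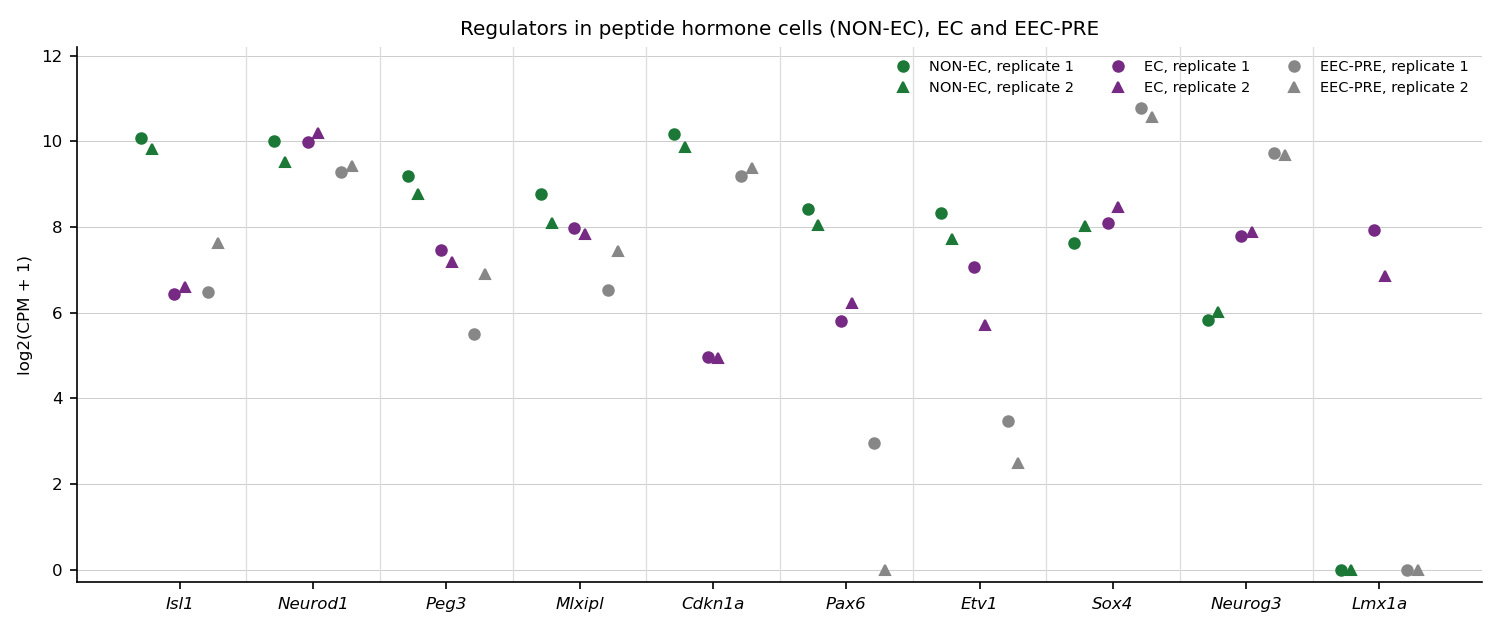
Level of 9 lineage factors and of Cdkn1a, as log2(CPM + 1) of the summed UMIs, in NON-EC (green), EC (purple) and EEC-PRE (grey), with circles for replicate 1 and triangles for replicate 2. Isl1, Pax6, Etv1 and Peg3 are highest in NON-EC, Sox4 and Neurog3 in EEC-PRE, and Lmx1a is seen only in EC among these 3 classes.

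Of 25 nutrient and hormone sensors 14 had enough counts to be tested, and 3 were higher in NON-EC than in EC and none lower. Ffar1 and Avpr1b gave at most 1 UMI in any sum of another class. They passed the filter on counts through NON-EC and could be called only as higher. Ffar1, a receptor for long-chain fatty acids, was at 258 and 126 CPM in NON-EC and 6.08 and 0 CPM in EC, 1 UMI, a ratio of 85.3 (counting interval 15.1 to 3388, adjusted p = 5.16e-10). Slc5a1, the sodium-glucose transporter, was at 166 and 98.3 CPM in NON-EC and 30.4 and 22.2 CPM in EC (log2 difference 2.34, SE 0.44, adjusted p = 0.000387). Avpr1b, a vasopressin receptor, was at 43.7 and 25.7 CPM in NON-EC and gave no UMI in any other class. Against EC it was at least 5.11-fold higher (adjusted p = 0.0208), a call lost without replicate 2 (adjusted p = 0.235) and without library as a term (adjusted p = 0.076). Ffar2, a receptor for short-chain fatty acids, was at 266 and 171 CPM in NON-EC and 292 and 255 CPM in EC (adjusted p = 0.826). DESeq2 called 1 of the 14, Slc5a1, and not Ffar1 (adjusted p = 0.909).

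The genes of electrical activity divided in the same comparison. Abcc8 and Kcnj11, the subunits of the ATP-sensitive potassium channel, were both higher in NON-EC, at 129 and 58.5 CPM and at 47.8 and 30.4 CPM, against 0 and 3.69 CPM and 0 and 0 CPM in EC (adjusted p = 0.000122 and 0.00758). The sodium channel Scn3a was lower, at 99.8 and 67.9 CPM in NON-EC and 1028 and 417 CPM in EC (log2 difference -3.07, SE 0.21, adjusted p = 9.39e-21). Of 30 tested genes of vesicle release 1 was called, Rab3c, which gave no UMI in NON-EC and stood at 651 and 321 CPM in EC, at least 135-fold lower in NON-EC (adjusted p = 1.08e-21). Of 10 tested serotonin genes 2 were called, both lower in NON-EC. Tph1 was at 8.32 and 2.34 CPM in NON-EC and 1101 and 580 CPM in EC (log2 difference -7.24, SE 0.40, adjusted p = 5.66e-14), and Slc18a1, a vesicle transporter of amines, at 31.2 and 28.1 CPM in NON-EC and 219 and 151 CPM in EC (log2 difference -2.59, SE 0.32, adjusted p = 2.83e-09). Ddc, the decarboxylase shared by amine-making cells, was at 551 and 459 CPM in NON-EC and 1046 and 650 CPM in EC (adjusted p = 0.196). By DESeq2 the calls for Abcc8, Rab3c and Tph1 were not made (adjusted p = 0.494, 0.788 and 0.422).

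Outside these lists the largest abundant differences from EC included Cdkn1a, at 1148 and 929 CPM in NON-EC and 30.4 and 29.5 CPM in EC (log2 difference 5.13, SE 0.39, adjusted p = 1.81e-07), and Rbp2, a retinol-binding protein of absorptive cells, at 270 and 157 CPM in NON-EC and 0 and 7.38 CPM in EC. The Rbp2 ratio was 47.2 (counting interval 12.9 to 393, adjusted p = 0.0222), and the call was lost without replicate 1 (adjusted p = 0.139). Aoc1 was at 12.5 and 28.1 CPM in NON-EC and 0 in EC (at least 2.88-fold higher, adjusted p = 0.0186), a call lost under many settings. On the lower side, Atf6, a sensor of unfolded protein, was at 47.8 and 46.8 CPM in NON-EC and 1241 and 502 CPM in EC (log2 difference -4.11, SE 0.41, adjusted p = 6.5e-05). Vim, the intermediate filament vimentin, was at 177 and 58.5 CPM in NON-EC and 839 and 576 CPM in EC (log2 difference -2.61, SE 0.21, adjusted p = 4.31e-15), while the stromal genes Col1a1 and Col3a1 were at 0 in NON-EC. Fam49b and Trim26 were lower by the same test (log2 difference -2.46, SE 0.27, adjusted p = 3.28e-11, and log2 difference -2.10, SE 0.42, adjusted p = 0.000417).

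NON-EC against EEC-PRE compares hormone cells with the precursor class. NON-EC had more of 10 of 11 tested hormones, 10 of 16 granule and processing genes, 8 of 14 sensors and 10 of 30 release genes, of which DESeq2 called 10, 5, 1 and 4, and less of the early factors Neurog3, Sox4 and Neurod2 and of ribosomal protein genes. In all, 666 genes were higher (6.06% of those tested) and 391 lower (3.56%), together 9.61%, and 2353 had an unadjusted p under 0.05. Higher genes were 63.0% of the calls, and with DESeq2 size factors in place of TMM 497 were higher and 550 lower, 47.5% higher. Without the NON-EC sum of replicate 1 the number called was 627.

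Of 11 tested hormones 10 were higher than in EEC-PRE and none lower, and Nucb2 missed the threshold (adjusted p = 0.0512). Gip, Gcg and Nts, which passed the filter on counts only through NON-EC, could be called in no other direction. Gcg and Gip were at least 491-fold and 296-fold higher in NON-EC, Sst at least 120-fold and Nts at least 14.2-fold (adjusted p = 2.72e-05, 9.01e-39, 0.000741 and 7.42e-07). The folds of Sst and Nts rest on few cells, as given above. In an edgeR fit of the 3 enteroendocrine classes alone the Sst call was lost (adjusted p = 0.357). Pyy and Cck, with 2 and 3 UMIs in EEC-PRE, had ratios of 439 (counting interval 121 to 3626, adjusted p = 1.11e-06) and 490 (167 to 2377, adjusted p = 6.16e-34). Ghrl had a log2 difference of 8.13 (SE 0.60, adjusted p = 4.29e-06). Tac1, which was low relative to EC, was higher here, at 79.0 and 105 CPM in NON-EC and 10.1 and 4.57 CPM in EEC-PRE (log2 difference 3.62, SE 0.65, adjusted p = 0.00021).

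The granule and processing list had 10 of 16 tested members higher and none lower. Here too Scg2 could be called only as higher. Chgb was at 4826 and 4540 CPM in NON-EC and 273 and 507 CPM in EEC-PRE (log2 difference 3.63, SE 0.48, adjusted p = 0.000332), and Cpe at 670 and 576 CPM in NON-EC and 6.75 and 27.4 CPM in EEC-PRE (log2 difference 5.32, SE 0.39, adjusted p = 8.15e-11). Scg2 and Scg3 gave no UMI in EEC-PRE and were at least 31.0-fold and 24.6-fold higher in NON-EC (adjusted p = 9.66e-12 and 1.9e-10). The convertase Pcsk1 did not follow, at 247 and 227 CPM in NON-EC and 240 and 242 CPM in EEC-PRE (adjusted p = 0.998), nor did Chga pass the test, at 952 and 772 CPM in NON-EC and 331 and 384 CPM in EEC-PRE (adjusted p = 0.169). DESeq2 called 5 of the 16, and not Scg2 (adjusted p = 0.616).

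Of the 29 factors, 8 were higher and 3 lower. Neurog3 was at 56.1 and 63.2 CPM in NON-EC and 841 and 813 CPM in EEC-PRE (log2 difference -3.81, SE 0.25, adjusted p = 7.05e-13), with a UMI in 15.5% and 15.2% of NON-EC cells and 89.5% and 76.7% of EEC-PRE cells. Sox4 was at 195 and 260 CPM in NON-EC and 1766 and 1521 CPM in EEC-PRE (log2 difference -2.87, SE 0.15, adjusted p = 2.61e-25), and Neurod2 at 16.6 and 16.4 CPM in NON-EC and 74.3 and 82.2 CPM in EEC-PRE (log2 difference -2.24, SE 0.53, adjusted p = 0.00176). Neurod1 was at 1027 and 726 CPM in NON-EC and 625 and 685 CPM in EEC-PRE (adjusted p = 0.424).

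The higher factors included Isl1, at 1077 and 899 CPM in NON-EC and 87.8 and 196 CPM in EEC-PRE (log2 difference 2.88, SE 0.42, adjusted p = 0.00236), and Etv1, at 320 and 211 CPM in NON-EC and 10.1 and 4.57 CPM in EEC-PRE (log2 difference 5.15, SE 0.48, adjusted p = 7.51e-14). Pax6 gave 2 UMIs in EEC-PRE, a ratio of 78.3 (counting interval 21.5 to 650, adjusted p = 7.42e-12). Mlxipl, Fev, Onecut3 and Peg3 were also higher. DESeq2's Wald test did not make the calls for Isl1, Pax6 and Onecut3 here (adjusted p = 0.18, 0.422 and 0.793).

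Sensors and release genes called against EEC-PRE were all higher in NON-EC. Sensors that passed the filter on counts only through NON-EC, such as Ffar1 and Avpr1b, could be called in no other direction. Of 14 tested sensors 8 were higher than in EEC-PRE and none lower: Ffar1, Gpr119, Slc5a1, Slc15a1, Gper1, Cnr1, Sstr5 and Avpr1b, which between them respond to fatty acids, lipid amides, glucose, peptides, oestrogen, cannabinoids, somatostatin and vasopressin. Ffar1 gave no UMI in EEC-PRE and was at least 33.7-fold higher in NON-EC (adjusted p = 1.39e-12), while Gpr119 and Sstr5, each at least 3.03-fold higher, were close to the threshold (adjusted p = 0.0368 and 0.0346). The call for Slc15a1 was lost without replicate 1 and that for Gper1 without replicate 2 (adjusted p = 0.068 and 0.161). Of 30 tested genes of vesicle release 10 were higher and none lower, among them Ptprn2, a dense-core granule protein, at 474 and 323 CPM in NON-EC and 70.9 and 100 CPM in EEC-PRE (adjusted p = 6.74e-09), and Cplx2, a complexin, at 343 and 307 CPM in NON-EC and 111 and 187 CPM in EEC-PRE (adjusted p = 0.00011). Of 14 tested excitability genes 6 were higher, including Scn3a, at 99.8 and 67.9 CPM in NON-EC and 30.4 and 27.4 CPM in EEC-PRE (log2 difference 1.59, SE 0.42, adjusted p = 0.00554; 0.163 without library as a term). By DESeq2 the numbers called were 1 of 14 sensors, 4 of 30 release genes and 1 of 14 excitability genes, and Ffar1 was not among them (adjusted p = 0.612).

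The machinery of protein synthesis moved in parts. All 30 tested ribosomal protein genes were lower in NON-EC than in EEC-PRE, with a median log2 difference of -0.77 where all genes had 0.18, and Rpl3 was at 798 and 828 CPM in NON-EC and 1847 and 1484 CPM in EEC-PRE (log2 difference -1.03, SE 0.11, adjusted p = 1.22e-12). DESeq2 called the same number, 30. Against EC none of the 30 was called by edgeR or DESeq2, and 0 had an unadjusted p under 0.05, where edgeR called 1.52% of all genes. Of 23 tested genes of protein folding in the endoplasmic reticulum 9 were higher than in EEC-PRE and none lower. The chaperone Hspa5 was at 952 and 1353 CPM in NON-EC and 439 and 717 CPM in EEC-PRE (log2 difference 1.01, SE 0.16, adjusted p = 0.000149), and DESeq2 called 4 of the 23. Against EC this list had 3 higher, Hsp90b1, Calr and Manf, and 1 lower, Atf6.

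Of 22 genes of DNA synthesis and 22 of mitosis, 0 were called between NON-EC and EC or EEC-PRE by edgeR or by DESeq2. At an unadjusted edgeR p under 0.05 there were 1 and 1 against EC and 0 and 2 against EEC-PRE. Against the stem cell class ISC, 21 of 22 and 22 of 22 were lower in NON-EC, and against the progenitor class SEC-PRO 18 of 22 and 22 of 22, where 13.8% and 12.5% of all genes were lower. Inhibitors and genes of cycle exit were mixed. Cdkn1a was at 1148 and 929 CPM in NON-EC and 581 and 662 CPM in EEC-PRE (log2 difference 0.75, SE 0.21, adjusted p = 0.0275; 0.117 by DESeq2), and Gadd45a at 95.7 and 65.5 CPM in NON-EC and 496 and 292 CPM in EEC-PRE (log2 difference -2.31, SE 0.24, adjusted p = 1.9e-10). Prom1, a membrane protein of crypt cells, was at 108 and 103 CPM in NON-EC and 473 and 489 CPM in EEC-PRE (log2 difference -2.18, SE 0.18, adjusted p = 1.66e-17).

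Transcripts of other cell types showed 1 call that did not hold. The goblet gene Zg16 was at 2998 and 714 CPM in NON-EC and 459 and 256 CPM in EEC-PRE (log2 difference 2.36, SE 0.64, adjusted p = 0.0396), and with the NON-EC cells rich in goblet or Paneth transcripts left out the log2 difference was -0.75. Of 6 Paneth and 9 tuft genes tested, 0 were called against EC or EEC-PRE by edgeR or by DESeq2, and 0 had an unadjusted p under 0.05. Among all genes edgeR called 1.52% and 9.61%, so 0 calls in lists this short say little. Sis, the sucrase of absorptive cells, was at 468 and 241 CPM in NON-EC, against 809 and 425 CPM in EC and 149 and 164 CPM in EEC-PRE (adjusted p = 0.273 and 0.0287, the second 0.457 by DESeq2).

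Against the 9 classes outside the enteroendocrine lineage, 18.1% (TUFT) to 43.2% (GOBLET-PRE) of genes were called, with 23.2% against GOBLET, 32.4% against PANETH, 32.7% against PANETH-PRE, 35.8% against SEC-PRO, 37.3% against both GP and ENTERO-PRO and 41.7% against ISC. In all, with the hormones and factors among them, 408 genes were higher in NON-EC than in each of the 9 (3.71%) and 38 lower (0.346%), and 360 of the 408 and 37 of the 38 were not called in that direction against EC. Against TUFT 12.6% of genes were higher and 5.55% lower, against GOBLET 12.7% and 10.5%, against PANETH 21.1% and 11.3%, against PANETH-PRE 22.7% and 10.0%, against SEC-PRO 23.3% and 12.5%, against ENTERO-PRO 24.8% and 12.5%, against GP 27.4% and 9.92%, against ISC 27.9% and 13.8% and against GOBLET-PRE 31.2% and 12.0%. For 8 of the 9 classes, all but GOBLET, higher genes were 65.1 to 73.4% of the calls, and 46.6 to 52.4% with TMM factors from all genes.

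The lineage factors stood out here too, with 17 of 29 higher in NON-EC than in each of the 9 classes, along with 11 of 16 granule genes and 9 of 11 hormones. Members that passed the filter on counts only through NON-EC could be called in no other direction. Neurod1 and Isl1 gave no UMI in the class GP, against which NON-EC was at least 2075-fold and 2327-fold higher (adjusted p = 2.18e-08 and 3.35e-07). St18, a zinc finger gene of the lineage, was at 252 and 169 CPM in NON-EC and 0 in PANETH-PRE, at least 201-fold higher (adjusted p = 2.18e-30). On the lower side were genes known from a compared class, such as tuft or Paneth cells, and a gene called against several classes. Gng13, a G protein subunit of tuft cells, was at 0 in NON-EC and 367 and 502 CPM in TUFT, at least 127-fold lower in NON-EC (adjusted p = 8.42e-30). Mptx2, a pentraxin of Paneth cells, was at 79.0 and 101 CPM in NON-EC and 28507 and 32618 CPM in PANETH (log2 difference -8.50, SE 0.53, adjusted p = 6.26e-08). Spink1, a trypsin inhibitor, gave no UMI in NON-EC and was at 822 and 459 CPM in ENTERO-PRO and 98.9 and 124 CPM in GOBLET, at least 187-fold and at least 34.6-fold lower in NON-EC (adjusted p = 6.56e-09 and 0.000476). It was also called against TUFT, ISC, GOBLET-PRE and PANETH (adjusted p = 0.021, 0.00322, 0.016 and 0.0316). Without the NON-EC sum of replicate 1 the calls against TUFT, ISC and GOBLET-PRE were lost (adjusted p = 0.205, 0.0819 and 0.178), and without that of replicate 2 those against TUFT and GOBLET-PRE (adjusted p = 0.0625 and 0.0619).

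**Figure D5:**
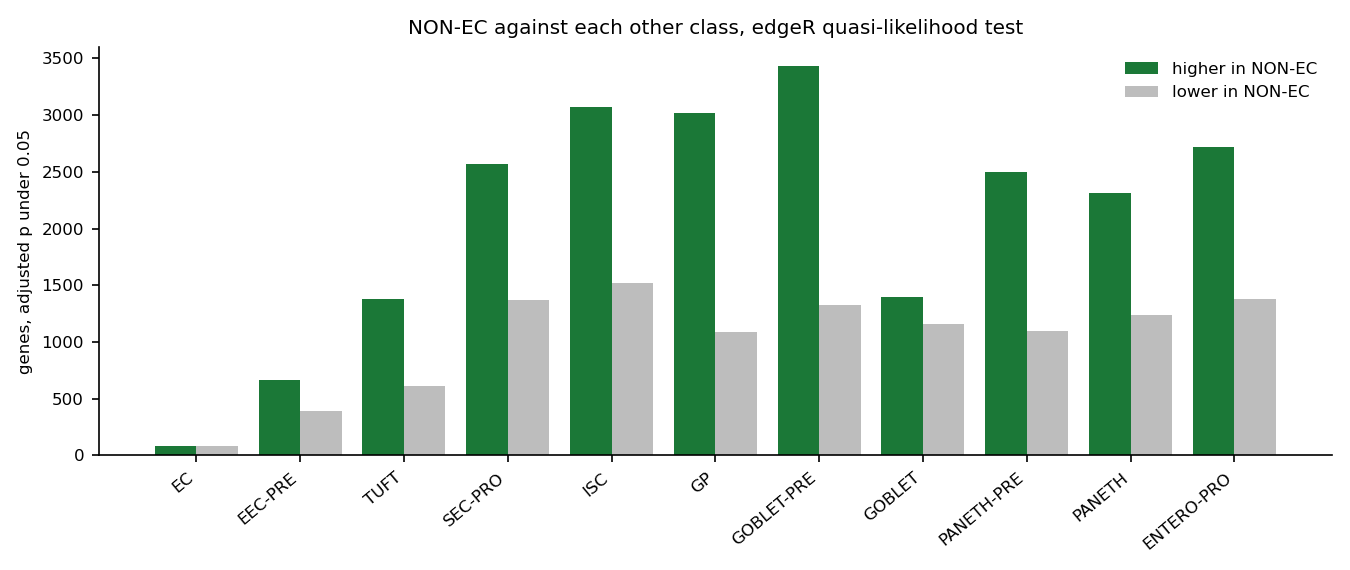
Number of genes higher (green) and lower (grey) in NON-EC than in each other class at an edgeR adjusted p under 0.05, of 10994 tested. The bars are shortest against EC, with 80 and 87 genes, and EEC-PRE, with 666 and 391, while the higher count is largest against GOBLET-PRE, with 3429, and the lower count against ISC, with 1520.

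The 42 genes higher in NON-EC than in each of the 11 other classes (120 at an unadjusted p under 0.05 in all, 23 by DESeq2, 26 without replicate 1) held the 8 hormones, the granule genes Scg2, Scgn, Cpe and Pam, the factors Isl1, Pax6, Etv1 and Peg3, the sensors Ffar1 and Avpr1b and the channel subunit Abcc8. Members such as Gip, Gcg, Nts, Scg2 and Avpr1b passed the filter on counts only through NON-EC and could be called only as higher. No gene was lower in NON-EC than in each of the 11 by edgeR or by DESeq2, and 3 were at an unadjusted p under 0.05. Ranked by the smallest difference to any class, the first 15 with an average of at least 3 log2 CPM also held Fabp5, Myl7, Cxxc4 and Mctp2. Fabp5 was at 932 and 868 CPM in NON-EC, against at most 101 and 45.7 CPM in another class (EEC-PRE in both libraries), a log2 difference of 3.57 (SE 0.28, adjusted p = 1.4e-09). Within NON-EC it was uneven, high in the few Gip-led cells and low in Ghrl-led cells, as given above. Myl7, a myosin light chain known from the heart, was at 395 and 204 CPM in NON-EC and at most 58.1 and 40.6 CPM elsewhere. Cxxc4, an inhibitor of Wnt signalling, was at 476 and 337 CPM in NON-EC and at most 128 and 51.7 CPM elsewhere (EC), and Mctp2, a calcium-binding membrane protein, at 266 and 157 CPM in NON-EC and at most 60.8 and 37.5 CPM elsewhere.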

How the data were processed

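The ileal crypt cells of 1 group in 2 libraries were counted gene by gene. Reads were processed by the authors with Cell Ranger 3.0.2 and STAR on mm10, per the submitters' processing notes. Per the file headers, their matrices give unnormalised UMI counts for 31053 genes and every barcode. In the deposited cell table each kept barcode has a class name, totals and a mitochondrial percent of its UMIs. The setting of classes, filters and strand was not given in the sources used here.

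UMIs of each class were added up per library, 24 sums in all. edgeR 4.0.16 in R 4.3.3 kept 10994 genes (filterByExpr) and fitted a robust quasi-likelihood model with class and library as terms, TMM factors from genes of at least 6 average log2 CPM, and Benjamini-Hochberg adjustment over all genes in each of 11 contrasts, called under 0.05. SE is the log2 difference divided by the root of the F statistic. The fit was tested on simulated data. Library was kept as a term because sums with the same number come from the same sorted cells; NON-EC deviated between libraries with the other classes at a median r of 0.250 (0.0535 to 0.367 over 11 classes). Whether separate mice stand behind the libraries is not in the labels, so the spread between sums may be technical. The edgeR p-values rest on the spread over the 24 sums of all classes, not on that of the NON-EC sums alone. A small p-value therefore does not show that the NON-EC sums were alike. Gip, at 634 and 2946 CPM in NON-EC, had an edgeR adjusted p = 1.56e-38 against EC.

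Where a class had no UMI, folds are bounds against 3 counts over both libraries. Where it had 1 to 3, they are ratios with exact counting intervals. Intervals and limits cover counting error only. Genes named were the 6 most abundant members of the hormone, granule, factor and sensor lists, the first 15 higher than every class, the 8 most extreme of each sign against EC and EEC-PRE at an average of at least 5 log2 CPM, 2 of each sign against other classes and 3 members of further lists, and others to complete a list's calls. Not all of them are printed, and some results are not reported here. Genes named by leading hormone were chosen after their values were seen. The members and lists were chosen with earlier results of these data known. Scrublet marked 2 of 5305 and 0 of 6257 cells, too few to be of use, so no doublets were removed. The listed cells had 601 to 2999 genes, and why so few were marked was not tested. Alternatives were DESeq2 1.42.0, other scaling, no filter, no library term, left-out sums, cells thinned to 2000 UMIs and, added after seeing the data, cells with other markers or the top hormone cell left out and a minimum of 5 UMIs for hormone pairs. Of the gene IDs, 30934 of 31053 were found in the annotation used for coordinates, GENCODE M21.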

Additional observations from a re-analysis of the deposited data

Results flagged for a closer look

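Barcodes outside the authors' cell table also held hormone transcripts. In replicate 1, 18 of 2857 unlisted barcodes with over 600 genes carried at least 20 UMIs of the 8 peptide hormones, and in replicate 2, 5 of 1286 did. Among listed cells, 63 and 53 NON-EC cells and 2 and 4 cells of other classes reached that number. All of these unlisted barcodes had either at least 3000 genes (13 and 2 barcodes) or at least 7% mitochondrial UMIs (6 and 3 barcodes), and their median number of genes was 3257.5 and 2369. They were counted here because they lie outside the cells that the comparisons use, and none was added to NON-EC.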

How the results depend on the processing

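Leaving out 1 NON-EC sum, with the lone sum assumed to vary like the other classes, moved the number of called genes to 129 to 171 against EC, 627 to 957 against EEC-PRE, 1107 to 1797 against TUFT, 2038 to 3246 against SEC-PRO, 2589 to 3815 against ISC, 2430 to 3268 against GP, 2998 to 3766 against GOBLET-PRE, 2119 to 2267 against GOBLET, 2145 to 2933 against PANETH-PRE, 2271 to 2987 against PANETH, 2696 to 3459 against ENTERO-PRO and 26 to 48 higher than every class, with the lower count each time without replicate 1. With cells thinned to 2000 UMIs the counts were 602 (EEC-PRE), 1237 (TUFT), 2543 (SEC-PRO), 2970 (ISC), 2627 (GP), 3142 (GOBLET-PRE), 2151 (PANETH-PRE), 1433 (PANETH) and 2429 (ENTERO-PRO), and 28 genes were higher than every class, with fewer cells and UMIs by construction. DESeq2 gave 23 such genes, and within the lists it called 2 of 16 granule genes (edgeR 7), 3 of 29 factors (9) and 1 of 14 sensors (3) against EC, and 5 granule genes (10), 1 sensor (8), 4 of 30 release genes (10), 1 of 14 excitability genes (6) and 4 of 23 folding genes (9) against EEC-PRE; hormones and ribosomal protein genes gave 8 (9) and 0 (0) against EC and 10 (10) and 30 (30) against EEC-PRE. Without the replicate block, that is, without library as a term, 112 genes were called against EC, 734 against EEC-PRE and 32 were higher than every class. Leaving out cells rich in goblet or Paneth transcripts gave 178, 1041 and 53. DESeq2 size factors shifted the median log2 of all genes by -0.004 against EC and by up to -0.30 (ISC) elsewhere, and TMM over all genes by 0.074 against EC and by up to -0.37 (GOBLET-PRE) elsewhere. Of 273 named differences over 95 genes, 269 gave the same call under either of these scalings, 256 without the block, 231 of 272 under DESeq2 and 257 with thinned cells; most of the rest lost significance. Signs turned, with the cause not tested, for Ffar2 (-0.72 to 0.071 against EC and -0.14 to 0.64 against EEC-PRE with 1 sum left out), Neurod1 (-0.71 to 0.059 against EC with 1 sum left out) and Pcsk1 against EEC-PRE (-0.085 to 0.10 with 1 sum left out, 0.31 thinned, 0.11 without mixed cells), none of which was called, and for Zg16 against EEC-PRE (-0.75 without mixed cells). The NON-EC share was 1.68% with cells under 2000 UMIs left out, the share of NON-EC cells with a Ghrl UMI 36.5% and with a Gip UMI 9.81% after thinning, and 90 to 94 cells were led by a hormone in 1 library. The doublet alternative gave no usable result.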
